A study of Mus musculus with 14 samples.

Results

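Peaks of methylated DNA at the mouse olfactory receptor (Olfr) genes were described in 14 samples profiled by MBD-seq. This assay pulls down sheared DNA with a protein that binds methylated CpGs and sequences it, so that a pile of mapped tags, called a peak, marks a stretch that holds methylated CpGs. A peak was counted when it lay on chromosomes 1 to 19 and overlapped an annotated gene whose symbol is Olfr followed by a digit, with 2 kb added on each side of the gene body. The rule found 1515 peaks among the 1012200 called on these chromosomes in the 14 samples. All peaks were also merged across samples wherever they shared at least 1 bp, and 205 of the 147237 merged regions held such a peak. A sample was counted in a region for any peak there, including one that did not reach the gene with its 2 kb. The region at Olfr938, for example, had a peak in all 14 samples, but the gene had one in only 1 sample. The annotation of mouse NCBI build 37 (mm9) gave 1243 such genes on these chromosomes, and their windows covered 6.98 Mb, or 0.282% of the autosomes. A further 8 Olfr genes on the X chromosome had no peak in any sample and were not counted.

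Induced pluripotent stem (iPS) cells were represented by 4 Aid+/+ clones and by 4 Aid-/- clones, in which Aid is disrupted. Beside them stood 3 embryonic stem (ES) lines and 3 Aid+/+ cultures of embryonic fibroblasts (MEFs), from which such clones are induced. The comparisons asked whether the Aid-/- genotype, or reprogramming itself, was accompanied by a difference in DNA methylation. The iPS clones were male, at passage 6, on a mixed C57BL6, DBA and 129S4 background with a Nanog-GFP reporter, and were grown on gelatin in medium with LIF and puromycin. The MEFs had the same background, sex and reporter and were at passage 3. The ES lines had neither a reporter nor an Aid genotype in their labels, were grown on gelatin with LIF, and differed in strain: RF8 is 129SV at passage 19, MG1.19 is 129Ola and B6 ES is C57BL6. They are called ES 1, ES 2 and ES 3 in that order. Each iPS sample was 1 clone. By their names, the Aid+/+ clones 3 and 4 and the Aid-/- clones 1 and 2 belonged to the same series, 979, and the other clones to a series of their own genotype.

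Olfactory receptors are G protein-coupled receptors of the sensory neurons of the nose and make up the largest gene family of the mouse. Their genes lie in clusters on many chromosomes, most with the whole coding sequence in a single exon, and a mature olfactory neuron expresses one allele of one of them while the rest are held in compacted chromatin. They are not known to serve a function in pluripotent cells or fibroblasts, and their transcription in these samples was not examined here. Many are near-copies of each other and lie among repeats, so that a tag of 75 bases may not always have a unique place.

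The sequences below show 200 bases on the strand of the gene, from NCBI build 37, centred on the median peak summit, with each CpG in capitals. Olfr1459 (chr19:13219240-13219439, minus strand, 16 CpGs) and Olfr691 (chr7:112485466-112485665, minus strand, 10 CpGs) had a peak in all 14 samples, the first past the end of the gene and the second within the coding exon.
Olfr1459: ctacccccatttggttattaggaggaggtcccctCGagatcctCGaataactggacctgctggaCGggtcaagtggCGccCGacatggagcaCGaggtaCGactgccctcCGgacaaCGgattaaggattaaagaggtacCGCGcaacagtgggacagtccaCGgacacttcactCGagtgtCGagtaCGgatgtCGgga
Olfr691: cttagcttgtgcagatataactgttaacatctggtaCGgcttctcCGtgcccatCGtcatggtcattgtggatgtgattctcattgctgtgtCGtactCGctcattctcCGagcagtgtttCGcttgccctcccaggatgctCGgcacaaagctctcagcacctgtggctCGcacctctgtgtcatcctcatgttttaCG
Olfr672 (chr7:112142678-112142877, minus strand, 14 CpGs) and Olfr898 (chr9:38159201-38159400, plus strand, 10 CpGs) had a peak in all 8 iPS clones and in no MEF culture, both in the flank past the gene end. Most CpGs of Olfr672 sit in or beside a run of TG and CG repeats.
Olfr672: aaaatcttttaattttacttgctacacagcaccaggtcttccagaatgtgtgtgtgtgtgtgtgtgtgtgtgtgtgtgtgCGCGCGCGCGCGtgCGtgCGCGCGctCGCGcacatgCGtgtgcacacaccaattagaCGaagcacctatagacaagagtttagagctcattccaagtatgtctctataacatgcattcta
Olfr898: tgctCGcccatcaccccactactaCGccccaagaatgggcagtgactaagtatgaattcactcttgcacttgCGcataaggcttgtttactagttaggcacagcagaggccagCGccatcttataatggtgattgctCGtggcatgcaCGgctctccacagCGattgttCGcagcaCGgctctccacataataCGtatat
Olfr294 (chr7:93766328-93766527, minus strand, 13 CpGs) and Olfr951 (chr9:39203734-39203933, plus strand, 13 CpGs) had a peak in all 3 MEF cultures and in no iPS clone or ES line.
Olfr294: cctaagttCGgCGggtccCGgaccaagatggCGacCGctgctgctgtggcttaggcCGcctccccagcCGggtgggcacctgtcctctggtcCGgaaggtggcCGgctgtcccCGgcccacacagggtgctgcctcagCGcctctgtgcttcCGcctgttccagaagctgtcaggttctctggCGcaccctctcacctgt
Olfr951: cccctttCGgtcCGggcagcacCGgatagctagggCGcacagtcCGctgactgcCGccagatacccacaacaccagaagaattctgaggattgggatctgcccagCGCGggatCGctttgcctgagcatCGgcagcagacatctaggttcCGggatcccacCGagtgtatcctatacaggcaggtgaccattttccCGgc
Olfr17 (chr7:114241344-114241543, plus strand, 4 CpGs) had no peak in any sample, as was the case for most of the family, and the middle of its coding sequence is shown for comparison.
Olfr17: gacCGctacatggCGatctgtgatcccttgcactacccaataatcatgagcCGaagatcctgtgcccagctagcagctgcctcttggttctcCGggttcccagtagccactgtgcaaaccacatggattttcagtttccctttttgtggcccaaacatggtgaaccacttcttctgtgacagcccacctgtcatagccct

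The libraries held between 6.65 and 19.6 M tags (M, mega) after the removal of duplicates, and the total number of peaks per sample ran from 31650 in ES 2 to 106408 in Aid+/+ iPS 4. The MEF libraries had more of these tags than the Aid+/+ iPS libraries, 17.5 to 19.6 against 9.63 to 15.9 M, but before that removal they had 27.6 to 30.1 M tags and the Aid+/+ iPS libraries 28.4 to 36.9 M. By the version of the peak caller and the run name in the file headers, the lists fell into 4 processing runs, with Aid+/+ iPS 1 and Aid-/- iPS 1, 2 and 4 in run A, Aid+/+ iPS 2, 3 and 4 in run B, Aid-/- iPS 3, the ES lines and MEF 1 in run C, and MEF 2 and 3 in run D. No run held both MEF and Aid+/+ iPS samples or both ES and Aid+/+ iPS samples, so in these comparisons the run and the cell type cannot be told apart. Within 1 kb of the gene start, Nanog and Zfp42, which are active in pluripotent cells, had a peak in 2 and 3 of the 3 MEF cultures and in no iPS or ES sample. Dppa5a and Tdgf1 had one in 1 MEF culture each, and Dppa3 and Esrrb had none in any sample. Pou5f1 had one in all 8 iPS clones and in no ES or MEF sample, unlike the other pluripotency genes examined. The clones were made with retroviral copies of such factors, and whether tags of those copies map there was not tested. Of the 6 fibroblast markers only Col1a1 had any, in the 8 iPS clones and 1 ES line.

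Most Olfr genes carried no peak. Of the 1243 genes, 1053 had none in any sample, 190 (15.3%) had one in at least 1 sample and 27 (2.17%) had one in all 14. Among the 1106 protein-coding Olfr models 175 had a peak, and among the 137 pseudogene or other non-coding models 15 did. Of the vomeronasal receptor genes Vmn1r and Vmn2r, a second clustered family of chemosensory receptors, 60 of 326 (18.4%) had a peak in at least 1 sample, and of the other protein-coding genes 16506 of 19991 (82.6%) did. Averaged over samples, a peak was found at 7.96% ± 2.00 (SD, n = 14) of Olfr genes, 10.4% ± 1.78 of vomeronasal receptor genes and 61.9% ± 10.9 of other protein-coding genes. The Olfr share was the lowest of the 3 in 14 of 14 samples (exact sign-flip permutation test over samples, p = 0.000122, the smallest that 14 samples can give; adjusted p = 0.000163 over 8 tests of this kind). The samples share the same loci, so these p-values say only that the libraries do so alike.

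Gene length entered these shares, since the window grows with the gene and the median span was 957 bp for Olfr genes and 17391 bp for the other protein-coding genes. With a fixed window from 2 kb before to 3 kb after the gene start, a choice made after seeing the data, the mean shares were 7.02% for Olfr, 2.06% for vomeronasal receptor and 19% for other genes. The order of the receptor families was thus reversed, with Olfr above the vomeronasal genes by 4.96 percentage points in the same test (exact p = 0.000122). Per length of genome the Olfr windows held 15.5 ± 3.91 peaks per Mb against 29.3 ± 9.98 in the rest of chromosomes 1 to 19.

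The Olfr genes that did carry a peak were the ones richer in CpG. The fixed window of 5 kb held a median of 21 CpGs for Olfr genes, 20 for vomeronasal receptor genes and 104 for other protein-coding genes. Within the Olfr family the median was 20 CpGs for genes without a peak, 39 for genes with a peak in 1 to 13 samples and 48 for genes with a peak in all 14. Over the 1243 genes the number of samples with a peak and the CpG number had a Spearman correlation of 0.438, a description across genes that share libraries and clusters. Among genes with a single coding exon, the first 900 bp from the coding start held 0.75 CpGs per 100 bp in the 850 genes without a peak, 1.64 in the 133 genes with a peak in some samples and 1.49 in the 22 genes with a peak in all.

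A larger share of Olfr genes than of other protein-coding genes carried a peak where the window was rich in CpG. In windows of 30 to 39 CpGs a mean of 10.8% of 138 Olfr genes and 7.08% of 951 other genes had a peak, with Olfr higher in 13 of 14 samples. In windows of 40 to 59 CpGs the shares were 37% of 91 and 19.9% of 2268 genes, and at 60 CpGs or more they were 68.9% of 40 and 21.4% of 15221 genes, with Olfr higher in 14 of 14 samples in both. The vomeronasal receptor genes, few in these bins, had mean shares of 5.28% of 23, 57.1% of 3 and 42.9% of 3 genes in the same order. The height above other genes at 40 CpGs and more was thus not particular to Olfr genes. The last bin has no upper bound, so the genes in it were not matched in CpG number. Below 30 CpGs no bin exceeded 2.28% for Olfr or 2.79% for other genes. Of the Olfr genes, 974 had fewer than 30 CpGs in the window.

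**Figure D1:**
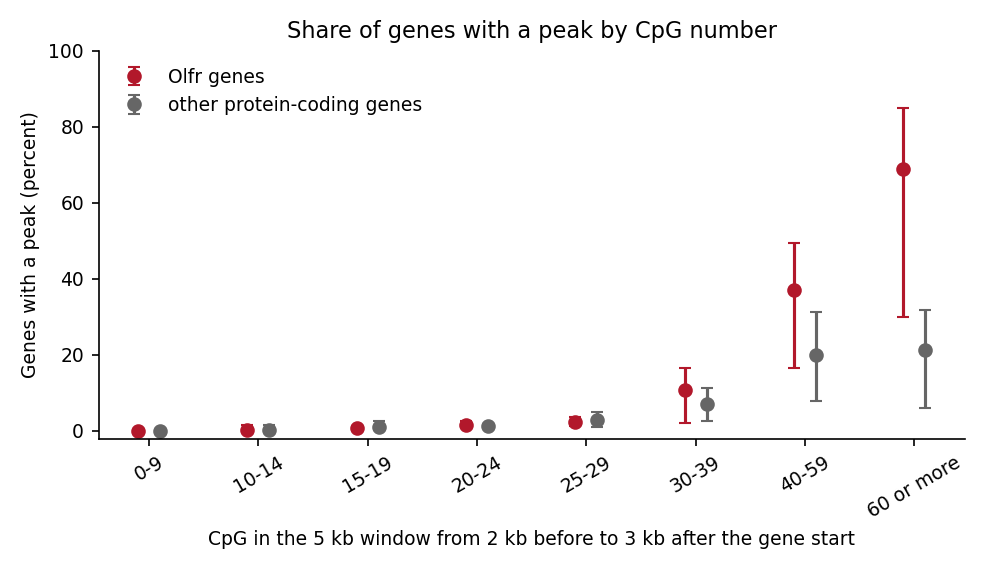
Percent of genes with a peak (vertical axis) by the number of CpGs in the 5 kb window around the gene start (horizontal axis), for Olfr genes (red) and other protein-coding genes (grey); points are means over the 14 samples and bars run from the lowest to the highest sample. The families lie together below 30 CpGs, and the Olfr genes lie above the others at 40 CpGs and more, at 68.9% against 21.4% in the last bin.

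Peaks at Olfr genes were longer and more enriched than the other peaks of the same sample. Their median fold enrichment, which is the peak height over the local background computed by the peak caller, averaged 18 ± 2.55 (SD, n = 14) against 14.8 ± 1.51, and was higher in 14 of 14 samples. The median length was 702.5 ± 85.0 against 642.6 ± 75.6 bp and the median tag count 51.5 ± 12.5 against 39.6 ± 9.08, also higher in all 14 samples (exact sign-flip permutation test, p = 0.000122 for each, adjusted p = 0.000163). CpG density was 3.07 against 2.93 per 100 bp, higher in 13 of 14 samples (exact p = 0.000366), and GC content was 50.3% against 49.9%, higher in 11 of 14 (exact p = 0.00977). The smallest difference in fold enrichment was 0.72, in ES 2, and the largest 4.31.

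**Figure D2:**
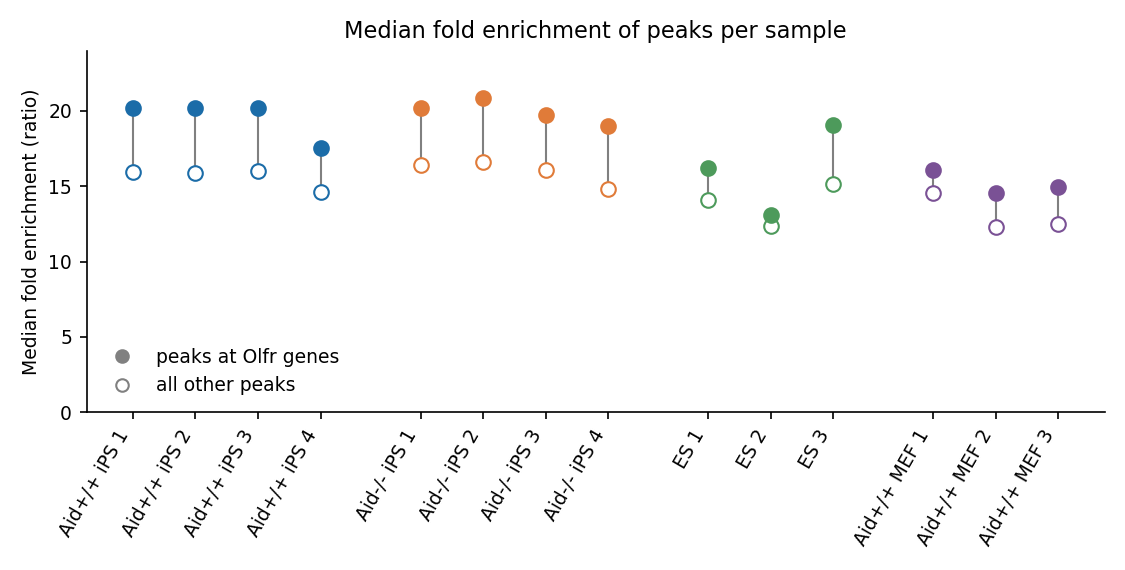
Median fold enrichment (vertical axis, ratio over the local background) of peaks at Olfr genes (filled) and of all other peaks (open) in each of the 14 samples (horizontal axis), coloured by group, with a line joining the values of a sample. The filled point lies above the open point in every sample, by 0.72 to 4.31.

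With flanks of 2 kb, summits of these peaks lay in coding sequence more often than those of other peaks. A mean of 41.8% ± 6.68 (SD, n = 14) of peaks at Olfr genes had the summit in a coding exon, against 18.7% ± 1.92 of the other peaks, again in 14 of 14 samples (exact sign-flip permutation p = 0.000122). The comparison is tied to the rule, because the Olfr windows consist of short genes with coding exons and the rest of the genome does not, and to the window. With flanks of 5 kb the coding share was 24.96% in Aid+/+ iPS, 24.3% in Aid-/- iPS and 21.5% in ES samples against 18.2%, 18.95% and 17.1% of the other peaks, and in MEFs it was 19.7%, below the 20.8% of the other peaks. Of the 205 merged regions, 91 had the median summit in a coding exon, 31 in the flank before the gene, 42 in the flank after it, 16 in an intron, 1 in an exon of a non-coding model and 24 outside the window although a peak reached into it.

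Coding and other regions differed in how widely they were shared. Of the 31 regions with a peak in all 14 samples only 6 had the summit in a coding exon and 25 had it elsewhere. Of the 91 coding regions 65 were found in 2 to 13 samples and 20 in 1 sample. Among genes with a single coding exon, 507 of 768 summits (66.0%) at genes with a peak in 1 to 13 samples lay in the first 900 bp from the coding start, and 69 of 244 (28.3%) at genes with a peak in all 14. Copies of the sequence followed the same division. The 75 bases around the summit, as long as a read, occurred once in the genome for 88 of the 91 coding regions. Among the regions present in all samples they did so for 6 of 6 coding and 9 of 25 non-coding ones, and the copy number reached 944 in the latter. A single copy was found for 26 of all 31 regions in the flank before the gene and 32 of all 42 in the flank after it. For the whole set it was 166 of 205 regions (81.0%). The part that repeated sequence plays in the peaks shared by all samples was not tested.

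Of the 205 regions, 31 (15.1%) had a peak in all 14 samples, where 9.90% of all merged regions did, and 49 (23.9%) in a single sample, against 22.3%. A peak in all 8 iPS clones was seen at 88 (42.9%), where 32.5% of all merged regions had one, and in no iPS clone at 35 (17.1%), against 13.4%. Of the 31 regions with a peak in all samples, 9 had the median summit outside the window. A peak of any single sample that reached a window made the region a member, so regions shared by many samples had more chances to be counted. The part this plays in the higher shares was not tested. Of the 49 regions seen in a single sample 12 came from ES 2, 8 from Aid+/+ iPS 4, 7 from MEF 3, 6 from ES 1 and 3 from ES 3, samples that gave 10.2%, 22.3%, 7.25%, 9.37% and 18.1% of all single-sample regions.

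Among genes marked in all 14 samples, Olfr1459 had the highest median fold enrichment, 39. Its values were 42.2, 38.1, 38.1 and 32.4 in the Aid+/+ iPS clones, 43.3, 40.1, 34.0 and 38.4 in the Aid-/- clones, 42.4, 43.4 and 37 in the ES lines and 39.7, 39.5 and 35.4 in the MEFs, so that all groups overlapped. The region (chr19:13218772-13219966) lies in the downstream flank, and its summit sequence occurs once. Olfr691 (chr7:112484986-112486166, coding exon, 1 copy) stood at 31.0 to 42.3 in Aid+/+ iPS, 34.5 to 40.1 in Aid-/- iPS, 33.3 to 41.4 in ES and 31.3 to 32.6 in MEF samples, so that the MEF values lay below those of the Aid-/- clones and the ES lines.

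Olfr56, Olfr150 and Olfr149 were high in every iPS clone and lower in MEFs and in ES 2. The intronic region of Olfr56 (chr11:48916870-48917685) had fold enrichments of 45.3, 36.6, 43.2 and 39 in Aid+/+ iPS, 49.4, 45.0, 34.3 and 34.3 in Aid-/- iPS, 38.0, 11.8 and 42.2 in ES and 31.0, 23.5 and 13 in MEF samples. No MEF value reached the lowest iPS value. Olfr150 (chr9:39546840-39547829, 3 copies of the summit sequence) ran from 33.3 to 44.4 in the 8 iPS clones, from 16.0 to 41.4 in ES lines and from 19.6 to 30.1 in MEFs. Olfr149 (chr9:39508589-39509668, downstream flank) ran from 27.5 to 41.2 in iPS clones, from 22.6 to 31.9 in ES lines and from 7.20 to 19.8 in MEFs. These regions were picked for their height, and no test was made of these values.

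**Figure D3:**
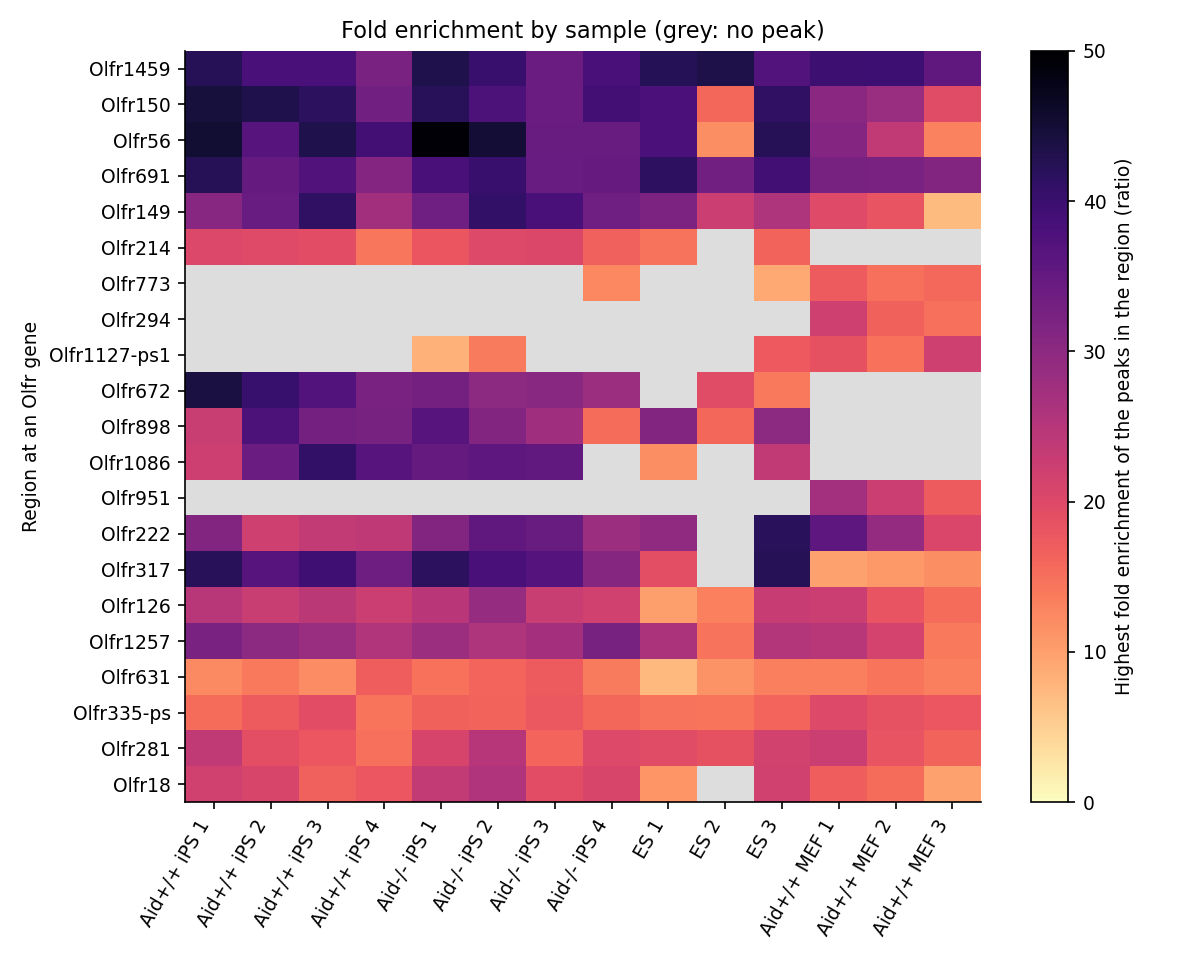
Highest fold enrichment (colour, ratio) in each of 21 named regions (rows, by gene) in the 14 samples (columns); grey marks a sample without a peak there. Olfr1459 and Olfr691 are dark in all columns, Olfr672 and Olfr898 are grey in the 3 MEF columns, and Olfr294 and Olfr951 are coloured in the 3 MEF columns alone.

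Of the receptors that are well studied, Olfr544 and Olfr1507 carried a peak, in a family where 15.3% of genes had one in at least 1 sample. Olfr544, a receptor for azelaic acid that is also found in metabolic tissues, had one in its coding exon (chr7:109632676-109633546) in 11 samples: all 8 iPS clones at 12.3 to 29.9, ES 3 at 25.3, and MEF 1 and MEF 2 at 8.67 and 8.21. The MEF values lay below every iPS value. Olfr1507, which lies next to an enhancer of receptor choice, had a peak in MEF 1 alone, at 8.67, in a stretch of 372 bp without a CpG. Olfr78, a receptor for short-chain fatty acids in kidney and carotid body, Olfr1393, which takes part in renal glucose handling, Olfr16, which is also expressed in sperm, and Olfr2, Olfr17, Olfr73 and Olfr151 had no peak in any sample. Their 5 kb windows held 23 to 42 CpGs. A missing peak says only that the tags did not pass the cutoff of the caller, since an unmethylated stretch and one poor in CpG both give few tags.

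The genes formed 50 clusters when neighbours less than 1 Mb apart were joined, and 30 of them had at least 5 genes. In 11 clusters no gene had a peak in any sample. Among the 30 larger ones the share of genes with a peak, averaged over the 14 samples, ran from 0 to 79.4% with a median of 6.87%, and had a Spearman correlation of 0.595 with CpG per kb over these clusters, given as a description. The chromosomes differed likewise: 42 of 261 genes on chromosome 7, 25 of 349 on chromosome 2 and 1 of 38 on chromosome 16 had a peak in at least 1 sample, and 9 of 9 did on chromosome 15.

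The largest clusters were not the most marked. The largest cluster, Olfr987 to Olfr1274-ps on chr2:85171054-90241831, had a peak in 18 of 268 genes and a mean share of 3.07%, with group means between 2.74% and 3.36%. The second, Olfr543 to Olfr692 on chr7:109625287-112517869, is the cluster of the class I receptors, the family shared with fish, and encloses 7 Hbb (beta-globin) genes. It had a peak in 25 of 145 genes, with mean shares of 13.1% in Aid+/+ iPS, 10.7% in Aid-/- iPS, 7.59% in ES and 6.21% in MEF samples. The next in size were Olfr151 to Olfr986 on chromosome 9 (12 of 97 genes, 7.07%), Olfr693 to Olfr519 on chromosome 7 (6 of 67, 2.99%) and Olfr1417 to Olfr1505 on chromosome 19 (8 of 67, 6.4%).

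The highest share was that of Olfr288 to Olfr279 (chr15:98016444-98328837), where all 9 genes had a peak in some sample. Its mean share was 91.7% in both iPS groups, 70.4% in ES and 55.6% in MEF samples, and its genes had a median of 78 CpGs in the 5 kb window. Single samples ranged from 88.9% to 100% in Aid+/+ iPS, from 33.3% to 100% in ES and from 44.4% to 66.7% in MEF samples. Olfr70 to Olfr155 on chromosome 4 followed, with 6 of 8 genes and shares of 62.5%, 56.3%, 45.8% and 16.7% in the same order of groups. At the other end, Olfr164 to Olfr171 on chromosome 16 had 0 of 8 genes, and Olfr275 to Olfr270 on chromosome 4 had 1 of 5 genes in 1 sample, a mean share of 1.43% that Olfr1358 to Olfr57 on chromosome 10 shared.

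**Figure D4:**
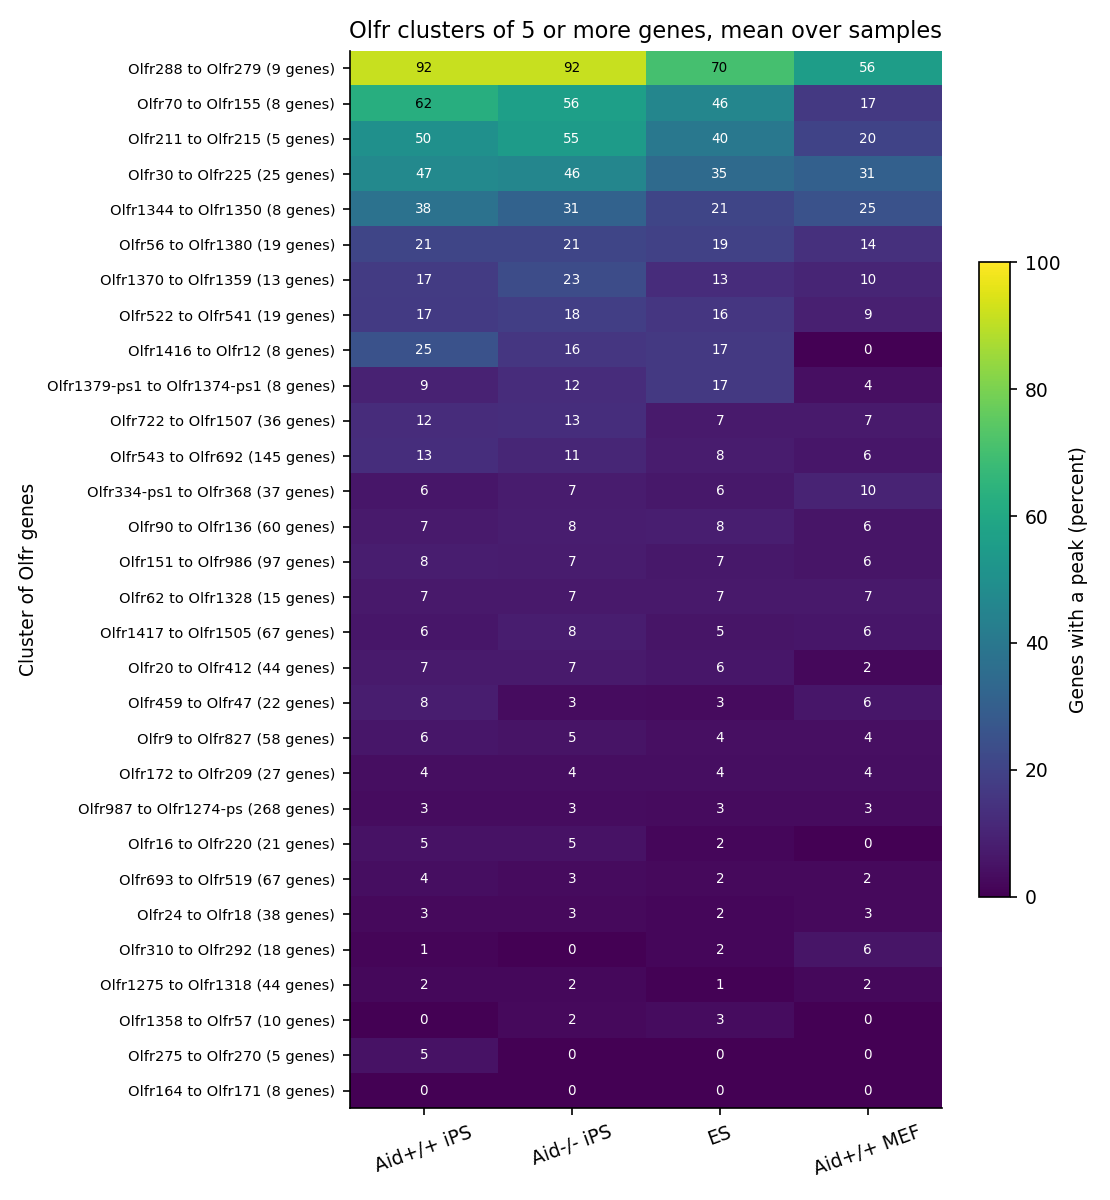
Percent of genes with a peak (colour and printed value) in the 30 clusters of at least 5 Olfr genes (rows, with the number of genes), as the mean over the samples of each group (columns). The top row, Olfr288 to Olfr279, reads 92 in both iPS groups and 56 in MEFs, and the bottom row, Olfr164 to Olfr171, reads 0 throughout.

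Loss of Aid was not accompanied by a detectable difference in these peaks. The Aid+/+ iPS clones had 107, 123, 130 and 142 peaks at Olfr genes and the Aid-/- clones 132, 128, 123 and 105, means of 125.5 ± 14.6 and 122 ± 11.9 (SD, n = 4 each), and the groups overlapped. As a percent of all peaks of the sample these were 0.140 ± 0.0061 and 0.150 ± 0.00745. Peaks were found at 9.25% ± 1.10 and 8.93% ± 0.729 of the genes, with median fold enrichments of 19.5 ± 1.34 and 19.9 ± 0.778. None of the 6 sample-level measures separated the genotypes (exact two-sided permutation test, p between 0.143 and 1, and at least 0.286 after adjustment over 18 tests). The smallest p that 4 against 4 clones can give is 0.0286. Within run A, 3 Aid-/- clones had a mean of 121.67 peaks and the only Aid+/+ clone 107, and within the clone series 979 the means were 130 and 136 (2 clones each, where p cannot go below 0.333).

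Region by region, few stretches at Olfr genes differed between the genotypes. A differentially methylated region (DMR) followed the study's definition, a stretch common to the peaks of all samples of one group and free of peaks of the other, and a commonly methylated region (CMR) was one with peaks of every sample of both. Of 93 such Olfr stretches in Aid-/- iPS cells 0 were DMRs, where 0.101% of all stretches were, and 87 were CMRs, where 90.1% of all were. Of 98 in Aid+/+ iPS cells 1 was a DMR, where 0.415% of all were, and 86 were CMRs, where 82.2% of all were. The DMR, at Olfr214 (chr6:116506484-116506805), had a fold enrichment of 14.7 ± 6.57 in the Aid+/+ clones. All 4 Aid-/- clones had a peak elsewhere in the same merged region, and no DMR was left when merged peaks were compared instead of stretches.

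Tag counts were tested by edgeR's quasi-likelihood test in the 88 Olfr regions with a peak in all 8 iPS clones, fitted with all 47835 such regions. At an adjusted p under 0.05, 0 Olfr regions were higher and 0 lower in Aid-/- cells, against 0 (0%) and 1 (0.00209%) of all regions. At an unadjusted p under 0.05 there were 5 Olfr regions of 88, and 3.63% of all regions. With the clone series as a term in the fit, again 0 were higher and 0 lower. The smallest p belonged to the coding exon of Olfr222 (chr11:59384236-59385359), whose normalised tag counts per M tags were 8.68, 6.02, 5.82 and 9.50 in Aid+/+ and 13.2, 14.8, 14.8 and 10.0 in Aid-/- clones. These did not overlap, with a log2 difference of 0.82 ± 0.25 (SE), but edgeR's adjusted p was 1. Olfr317 (chr11:58545385-58546523, coding exon) came next, at 15.4 to 17.0 in Aid+/+ and 20.9 to 27.5 in Aid-/- clones, a log2 difference of 0.48 ± 0.17 (SE; edgeR adjusted p = 1).

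The MEF cultures lay below the Aid+/+ iPS clones in the number of peaks at Olfr genes and above them in the share of their shorter peak lists, without overlap, but neither difference passed after adjustment. The MEF cultures had 78, 95 and 65 such peaks, a mean of 79.3 ± 15 (SD, n = 3), all below the lowest Aid+/+ iPS clone at 107 (exact two-sided permutation p = 0.0286, the smallest possible, and 0.171 after adjustment over 18 tests). As a percent of all peaks they were 0.171, 0.173 and 0.194, all above the highest iPS clone at 0.146 (exact p = 0.0286, adjusted 0.171). A peak was found at 5.87% ± 1.09 of the genes against 9.25% ± 1.10 (exact p = 0.0286, adjusted 0.171). The median fold enrichment was 15.2 ± 0.798 against 19.5 ± 1.34 (exact p = 0.0571), and its excess over the other peaks 2.10 ± 0.476 against 3.93 ± 0.694 (exact p = 0.0571, adjusted 0.206 for both), each without overlap. The share of tags was 0.171% and 0.168%, and the groups overlapped.

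The higher share of peaks in MEFs was not seen in lists of equal length. When the 31650 most significant peaks of each sample were kept, the share in MEFs differed from that in Aid+/+ iPS cells by -0.0197 percentage points (exact p = 0.0857), and the number of peaks by -6.25. The part that depth plays in the number of peaks was not tested. As these are bulk samples, a stretch methylated in fewer cells and one methylated less in every cell cannot be told apart.

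With flanks of 2 kb, the larger part of the difference in number between MEFs and Aid+/+ iPS cells lay in coding exons. This division depended on the window and on the length of the peak lists. MEF minus Aid+/+ iPS was -31.3 coding and -14.8 non-coding peaks with these flanks, -30.6 and -1.67 within gene bodies, and -32 and -65.75 with flanks of 5 kb, where the coding share was 19.7% in MEFs and 24.96% in Aid+/+ iPS cells (exact permutation p = 0.0571). Summits in coding exons, a measure chosen after seeing the data, made up 30.8%, 37.9% and 35.4% of the Olfr peaks of MEFs and 42.1%, 45.5%, 48.5% and 50.7% of those of Aid+/+ iPS clones, without overlap (34.7 ± 3.61 against 46.7 ± 3.75, SD, n = 3 and 4, exact permutation p = 0.0286, not adjusted, as for the tests of this paragraph). Among the other peaks of the same samples the order was the opposite, at 20.7% ± 0.455 in MEFs and 18.2% ± 1.31 in Aid+/+ iPS cells (exact permutation p = 0.0571). In numbers, the MEFs had 24, 36 and 23 coding peaks against 45, 56, 63 and 72 (exact permutation p = 0.0571). They had 42 to 59 non-coding peaks against 62 to 70 (exact p = 0.0286). With equal numbers of the most significant peaks the order of the non-coding peaks was reversed. The MEFs then had 42 to 45 of them against 35 to 40 in Aid+/+ iPS cells (exact permutation p = 0.0286). They had 15 to 18 coding peaks against 20 to 34 (exact permutation p = 0.0571). In these lists the coding share was 27.7% ± 1.64 in MEFs and 41.6% ± 6.55 in Aid+/+ iPS cells (exact permutation p = 0.0571). With all peaks the coding share was 44.0% ± 3.51 in Aid-/- clones and 45.2%, 28.1% and 44.5% in the ES lines, both overlapping with the Aid+/+ clones.

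Of 98 Olfr stretches common to the Aid+/+ iPS clones 21 were DMRs without a MEF peak and 41 were CMRs. Of all stretches, 28.2% were DMRs and 38.4% were CMRs. Of 52 common to the MEFs 5 were DMRs, where 6.37% of all were. The count of 21 was 34 without Aid+/+ iPS 1. In the strongest of these regions, the downstream flank of Olfr672 (chr7:112142549-112142953), the fold enrichment was 44.0, 40.4, 37.1 and 32.3 in Aid+/+ iPS, 32.8, 30, 30.4 and 28.0 in Aid-/- iPS clones, and 19.7 and 13.9 in ES 2 and ES 3. ES 1 and all MEFs had no peak. Olfr898 (chr9:38158982-38159455, downstream flank) had values of 22.9, 37.8, 32.9 and 32.5 in Aid+/+ iPS, 15.4 to 36.7 in Aid-/- iPS and 16.0 to 31.3 in ES samples. Olfr1086 (chr2:86514494-86514909, downstream flank) had values of 22.2, 34.2, 41.0 and 36.6 in Aid+/+ iPS cells and a peak in 3 of 4 Aid-/- clones and 2 ES lines. The summit sequences of all of these occur once.

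The 5 MEF DMRs lay outside coding exons. Olfr773 (chr10:128626425-128627366) had fold enrichments of 17.2, 14.9 and 15.7 in MEFs and a peak in 1 Aid-/- clone and ES 3, and its summit sequence occurs 45 times. Olfr294 (chr7:93766084-93766882, upstream flank, 252 copies) had 22, 16.4 and 15. Olfr1127-ps1 (chr2:87366026-87366683, 1 copy) had 18.6, 14.7 and 22.1, with peaks in 2 Aid-/- clones and ES 3. Olfr951 (chr9:39203502-39204202, downstream flank, 1 copy) had 27.3, 22.3 and 17.3, and an intronic stretch of Olfr56 had a mean of 10.2 ± 4.26. Only the Olfr294 and Olfr951 regions had a peak in all 3 MEF cultures and no iPS clone, 0.976% of the 205 where 0.489% of all regions did, and 10 regions (4.88%) had the opposite pattern where 6.25% of all did.

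Tag counts of 43 Olfr regions with a peak in all 3 MEF and 4 Aid+/+ iPS samples were tested with edgeR in a fit of 21863 regions. At an adjusted p under 0.05, 8 were higher and 9 lower in MEFs, where 23.8% and 20.0% of all regions were. The median log2 difference was -0.13 over the Olfr regions and -0.05 over all. The counts depended on the scaling: with the filtered tags of each library, those left after the removal of duplicates, in place of the TMM factors computed from the regions, the median of all regions shifted to -1.29 and that of Olfr regions to -1.38, and 2 were higher and 37 lower. The directions given next hold relative to the median of all regions.

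Both of the highest differences were found at repeated sequence. In the intron of Olfr631 (chr7:111069520-111071156), a class I receptor gene, the normalised tags per M tags were 17.0, 16.0, 15.7 and 16.7 in Aid+/+ iPS and 109, 116 and 101 in MEF samples, a log2 difference of 2.74 ± 0.16 (SE; edgeR adjusted p = 6.18e-08). Its summit sequence has 440 copies. The fold enrichments of the same region overlapped, at 12 to 16.9 and 13.4 to 14.4. The upstream flank of Olfr335-ps (chr2:36154662-36156131, 57 copies) had 25.7 to 35.2 in iPS and 125 to 153 in MEF samples, a log2 difference of 2.22 ± 0.17 (SE; edgeR adjusted p = 5.159e-07). Both stayed higher under the scaling to filtered tags, at 1.5 and 0.97. The coding exon of Olfr222, of which 1 copy exists, had 9.57, 7.87, 7.75 and 14.1 in Aid+/+ iPS and 42.1, 35.7 and 27.5 in MEF samples (log2 difference 1.86 ± 0.26, SE; edgeR adjusted p = 9.955e-05). With filtered tags its difference was 0.64 and did not pass (edgeR adjusted p = 0.0599). The other 5 that were higher were at Olfr66, Olfr179, Olfr982, Olfr691 and Olfr474. The MEF fold enrichments of the Olfr691 region, given above, lay within the range of the Aid+/+ iPS clones.

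Among the lower regions, those with the smallest p were at Olfr281, Olfr18 and Olfr126. The coding exon of Olfr281 (chr15:98286353-98287953), in the cluster with the highest share of marked genes, had 65.6, 75.2, 76.7 and 81.7 tags per M tags in Aid+/+ iPS and 42.4, 50.0 and 41.4 in MEF samples, a log2 difference of -0.74 ± 0.17 (SE; edgeR adjusted p = 0.00375). Olfr18 (chr9:20125695-20127160, intron, 989 copies) differed by -0.78 ± 0.21 (SE; edgeR adjusted p = 0.0100) and Olfr126 (chr17:37989955-37991422, 2 copies) by -0.70 ± 0.19 (SE; edgeR adjusted p = 0.0100). Without MEF 3 none of these 3 passed, at -0.51, -0.45 and -0.38 (edgeR adjusted p = 0.0555, 0.127 and 0.132), and 2 Olfr regions in all were lower. Without Aid+/+ iPS 3 the number lower was 5. The others were at Olfr282, Olfr138, Olfr1512, Olfr317, Olfr1220 and Olfr194.

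The ES lines had the widest range of peak numbers of the 4 groups. They had 93, 57 and 137 peaks at Olfr genes, in a range that enclosed the Aid+/+ iPS clones, and 0.166%, 0.180% and 0.134% of their peaks lay there. No sample-level measure differed from Aid+/+ iPS cells (exact two-sided permutation p between 0.0857 and 1, adjusted at least 0.257). Of 44 stretches common to the ES lines 0 were DMRs (0.186% of all were) and 43 were CMRs (95.2% of all were). Of the 98 in Aid+/+ iPS cells 1, again at Olfr214, was a DMR (1.93% of all were). Leaving out ES 3, the line with the most peaks, raised this count to 22.

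Of 44 Olfr regions tested by edgeR in a fit of 22466, 0 were higher and 0 lower in ES cells at an adjusted p under 0.05, where 0.0134% and 0.00445% of all regions were, and 5 had an unadjusted p under 0.05, where 10.1% of all did. Olfr126 had 49.4, 51.4, 49.4 and 52.5 tags per M tags in Aid+/+ iPS and 7.91, 14.8 and 32.9 in ES samples, which did not overlap (log2 difference -1.41 ± 0.39, SE; edgeR adjusted p = 0.242). Olfr1257 (chr2:89716329-89717405, upstream flank) had 27.2 to 37.5 and 16.0 to 20.6 (log2 difference -0.82 ± 0.27, SE; edgeR adjusted p = 0.323). Without ES 3, 1 Olfr region was higher and 4 were lower, and Olfr126 passed at -2.18 (edgeR adjusted p = 0.00144).

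Peaks were also counted at genes that act with the receptors. Of 19 genes of odorant signalling and receptor choice 18 had a peak in some sample and 10 in all 14, beside 82.6% and 26.6% of the other protein-coding genes. Gene length entered here too and was not matched: Ebf1 alone held 36 regions and Ano2 19. The lysine demethylase gene Kdm1a had none, and Atf5, a transcription factor of the receptor feedback signal, had one in 1 MEF culture. Between the genotypes, 38 regions at 15 of these genes were tested and 0 passed in either direction. Between MEF and Aid+/+ iPS cells, 18 regions at 13 genes were tested, of which 7 were higher and 2 lower, beside 23.8% and 20.0% of all regions. With filtered tags as the scaling 1 was higher and 11 were lower. Between ES and Aid+/+ iPS cells, 14 regions at 8 genes gave 0 in either direction.

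In the signalling cascade, the olfactory marker protein gene Omp was higher in MEFs by a log2 difference of 2.32 ± 0.21 (SE; edgeR adjusted p = 2.303e-06), and by 1.08 with filtered tags. Ric8b, the exchange factor of the olfactory G protein, was higher by 1.60 ± 0.25 (SE; edgeR adjusted p = 0.000281). With filtered tags Ric8b was at 0.35 and did not pass (edgeR adjusted p = 0.26). The calcium exchanger gene Slc24a4 and the chloride channel gene Ano2 were lower, with log2 differences of -1.32 ± 0.25 and -0.84 ± 0.23 (SE; edgeR adjusted p = 0.00115 and 0.0110). With filtered tags Slc24a4 was at -2.55, and 2 of 2 Ano2 regions were lower, the one with the smallest p in that fit at -2.04. Rtp1 and Rtp2, which bring receptors to the cell surface, were higher by 0.60 ± 0.16 and 0.88 ± 0.18 (SE; edgeR adjusted p = 0.0103 and 0.00195), but were at -0.66 and -0.39 with filtered tags. Among factors of receptor choice, Ldb1, which bridges distant enhancers, and Lbr, which tethers heterochromatin to the nuclear envelope, were higher by 1.81 ± 0.39 and 1.45 ± 0.25 (SE; edgeR adjusted p = 0.0026 and 0.000584). With filtered tags Ldb1 was at 0.55. Of the 2 Lbr regions tested, 0 were then higher and 1 was lower, at -0.86. That region was picked by its p in this fit and need not be the region at 1.45. The cyclic nucleotide channel gene Cnga4, marked near its start in all 14 samples, differed by 0.15 ± 0.20 (SE; edgeR adjusted p = 0.562). With filtered tags its region was lower in MEFs, at -1.11 (edgeR adjusted p = 0.000293).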

How the data were processed

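As the labels and the methods of the study state, the authors enriched sonicated DNA with an MBD kit, mapped 75-base reads to mouse NCBI build 37 (mm9) with BWA 0.5.9rc1 and ran the peak caller MACS separately on every sample. Its versions, per the file headers, were 1.4.1 (9 samples) and 1.4.0rc2 (5 samples), with no control library, a p-value cutoff of 1.00e-05, at most 2 duplicate tags per position and a local background of 10 kb. The submitters' processing notes also name CASAVA 1.8.1. The deposited files give for each peak the count of filtered tags, the fold enrichment over the local background, a ratio, and the -log10 p multiplied by 10, as the authors deposited them. Without a control library, fold enrichment depends on the surrounding 10 kb.

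Genes and exons came from GENCODE vM1 of the same build. Each of the 14 samples was assigned to its group by its title. Replicate numbers only name samples. By their names some clones of both genotypes came from series 979, an experiment of the study, and the series was fitted as a term in an alternative. P-values measure the spread between these clones, lines or cultures. No 2 samples of a group shared an identical peak at Olfr genes.

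Sample-level measures were compared by exact two-sided permutation tests with Benjamini-Hochberg adjustment over 18 tests, and peaks at Olfr genes with the rest by exact sign-flip tests over 14 samples. DMRs and CMRs followed the study's rule of presence and absence and carry no p-value. Tags of the peaks in a region were summed per sample and tested with edgeR 4.0.16 (quasi-likelihood, TMM) over all regions of chromosomes 1 to 19 with a peak in every sample compared, so that regions lacking a peak in some sample were not tested. A count test with all reads was not possible, since the lists give tags within peaks only. DESeq2 1.42.0, limma 3.58.1 on log2 fold enrichment and other windows, cutoffs and scalings were alternatives. The edgeR step was tested on simulated data. Named genes were chosen by fixed rules: 10 well-studied receptors, the 5 genes with the highest median fold enrichment in all 14 samples, per comparison and direction the 3 DMRs with the highest least significance, the 3 called regions (or 2 where none was called) with the smallest p, and the 5 largest, 2 most and 2 least marked clusters. Olfr160, on that list, was not matched in the annotation. The Olfr951 region was added after its values were seen. A check of the targeted gene is not reported here. The members, lists and tests were chosen with earlier results of these data known.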

Additional observations from a re-analysis of the deposited data

Results flagged for a closer look

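In groups of 4 samples, a sample was marked when its gap to the nearest other sample took up more of the range of the group than the 95% critical value of Dixon's test, which chance gives in about 1 of 20 groups. Of 12 groups tested, 3 met it, all in the Aid+/+ iPS clones. The percent of tags in peaks that lay at Olfr genes was 0.17979 in Aid+/+ iPS 2, with the next clone at 0.16499. The median fold enrichment of peaks at Olfr genes was 17.54 in Aid+/+ iPS 4, with the next at 20.21, and its excess over the other peaks was 2.89 in the same clone, with the next at 4.23. Aid+/+ iPS 4 also had the most peaks of the 14 samples.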

How the results depend on the processing

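Under the alternatives, 296 values of the comparisons and 214 of single regions or measures were unchanged. They kept their direction and side of the threshold or, for numbers of regions called, stayed equal or near. Among the comparisons 25 numbers of regions moved further, 12 values changed direction, 21 lost the threshold and 3 gained it. Among single regions or measures 22 changed direction, 18 lost the threshold and 4 gained it. The exceptions follow, and their cause was not tested unless said. With the same number of most significant peaks, Aid-/- minus Aid+/+ iPS cells turned to 2.00 peaks, 0.121% of genes, -0.676 in median fold enrichment and -0.174 in its excess. MEF minus Aid+/+ iPS was then -6.25 peaks and -0.0197% of peaks (also for ES), and peaks at Olfr genes differed from others by 0.0261 CpG per 100 bp and 1.75 tags. Per M tags the number differed by 2.68 (Aid-/-) and -6.23 (MEF). The excess in fold enrichment was -0.0600 for Aid-/- at genes up to 10 kb (chosen after seeing the data), and for MEFs -4.62 in gene bodies, -2.06 at p of 1e-10 and -2.65 by summit, each now at exact p = 0.0286. The share of tags, never beyond the spread, changed sign for Aid-/- with 5 kb flanks (0.00127), gene bodies (0.00239), series 979 (0.00135) and summits (0.00402), for ES at genes up to 10 kb (0.000609), with 5 kb flanks (0.0101) and coding models (0.0021), and for MEFs with gene bodies (-0.0158), p of 1e-10 (-0.000524), coding models (-0.0135) and equal numbers of peaks (-0.0268). GC content differed by 0.00434 with 5 kb flanks and 0.293 at coding models, the tags by 6.32 in gene bodies, and Olfr minus vomeronasal genes was 4.96 with the fixed window.

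DMRs against MEFs numbered 12 in Aid+/+ iPS cells and 1 in MEFs within gene bodies, and 6 and 11 with equal numbers of peaks. The DMR of Aid+/+ iPS cells against Aid-/- and against ES cells was 0 with merged peaks, at p of 1e-10 and with equal numbers of peaks. In tag counts against MEFs, 2 regions were higher and 37 lower with filtered tags, 4 lower with peak length as an offset, and 1 higher by limma on fold enrichment, where Olfr281 was at 0.012 and, between genotypes, Olfr317 at -0.043.

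Leaving out a sample at a time gave ranges, for Aid-/- iPS, of -9.67 to 2.17 peaks, -0.751 to 0.134% of genes, -0.0035 to 0.00206% of tags, -0.275 to 0.711 in fold enrichment, -0.308 to 0.165 in its excess, and DMR counts of 1 to 2 (Aid+/+) and 0 to 1 (Aid-/-). For MEFs they were -54.0 to -39.0 peaks, 0.0324 to 0.0438% of peaks, 21 to 34 and 5 to 7 DMRs, 6 to 10 regions higher and 2 to 12 lower, and with 6 samples the tests cannot go below 0.0667. For ES they were -0.0078 to 0.00559% of tags, 1 to 22 and 0 to 1 DMRs, 0 to 1 regions higher and 0 to 4 lower. Samples were not paired by replicate number, since these numbers only name samples and tie none of them across groups. With the clone series as a term, which both genotypes share in part, edgeR again called 0 Olfr regions. Depth differs between libraries, and the lists hold no tags outside peaks, so a weakly methylated stretch cannot be told from an unmethylated one.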
